A study of Mus musculus with 4 samples.

Results

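The 10 genes Nsd1, Nsd2, Nsd3, Setd2, Ash1l, Kdm2a, Kdm2b, Kdm4a, Kdm4b and Kdm4c encode enzymes that add methyl groups to lysine 36 of histone H3 (H3K36) or take them off. They were chosen by name, out of 21792 RefSeq protein-coding genes. The differentially methylated regions that overlap one of them, with the gene body widened by 5 kb on both sides, were collected. There were 18 such regions, out of 101350 in the authors' deposited table. DNA methylation had been measured by whole-genome bisulfite sequencing, in which cytosines that stay unconverted are read as methylated, in DNA from somatosensory cortices of mice, collected at an age of 2.5 months. The mice labelled cKO (n = 2 libraries, genotype Nsd1Nex-cKO) lack Nsd1 under the Nex driver, which is active in excitatory neurons of the cortex. The control mice (n = 2 libraries) are labelled Nsd1fl/+ and so carry a floxed Nsd1 allele too. The labels do not say whether they carry the driver.

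The enzymes divide the work on H3K36. NSD1, NSD2, NSD3 and ASH1L place lower methylation states of H3K36, while SETD2 places the trimethyl mark in the bodies of transcribed genes. KDM2A and KDM2B remove the lower states, and KDM4A, KDM4B and KDM4C act on the higher states of H3K36 and on H3K9. The PWWP domains of the DNA methyltransferases DNMT3A and DNMT3B bind methylated H3K36, which ties the mark to DNA methylation. In neurons, cytosines outside CG also carry methylation, placed mainly by DNMT3A, and these contexts are written CHG and CHH, where H is A, C or T.

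All levels below are the authors' mean of a group over the cytosines of a called region, deposited as a fraction and given here as a percent. There is 1 mean for the 2 libraries of a group, so no difference below can be set against the spread between libraries, and no test of a difference was possible. Read depth is unknown. The deposited number of cytosines counts both strands, since it equalled the CG cytosines of both strands in 205 of 214 CG regions that lie inside a RefSeq start window and was above them in 0. A CG site therefore counts as 2 cytosines. The cortex was sampled whole, so a level averages over neurons with the driver, other neurons and non-neuronal cells, and a change within a cell type and a change in the share of that cell type cannot be told apart. DNA methylation does not show directly which cell types were present, and the tissue label was not checked against marker expression.

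The sequence around a start site sets how many CG cytosines can carry methylation there, and for 4 of the 10 genes a window around a start site (250 bases before it and 50 after) could be taken from RefSeq (GRCm38.p6, the assembly of mm10). The bases of each window that lie outside the gene model are given 5′ to 3′ on the strand of the gene, with every CG in capitals. They are shown because Kdm2b lost CG methylation on both sides of its start, whereas Setd2, Kdm4a and Kdm4c had 0 regions of any context.
Kdm2b, chr5:122989271-122989349, minus strand: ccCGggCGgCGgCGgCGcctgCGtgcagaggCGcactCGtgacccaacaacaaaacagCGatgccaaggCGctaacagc
Setd2, chr9:110532347-110532499, plus strand: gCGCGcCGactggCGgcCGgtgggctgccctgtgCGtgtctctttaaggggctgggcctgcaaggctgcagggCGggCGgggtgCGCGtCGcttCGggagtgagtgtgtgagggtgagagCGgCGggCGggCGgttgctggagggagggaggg
Kdm4a, chr4:118180091-118180293, minus strand: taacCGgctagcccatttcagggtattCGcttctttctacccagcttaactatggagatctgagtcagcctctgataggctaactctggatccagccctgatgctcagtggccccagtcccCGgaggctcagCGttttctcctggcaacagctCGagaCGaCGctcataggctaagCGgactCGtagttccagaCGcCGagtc
Kdm4c, chr4:74242247-74242496, plus strand: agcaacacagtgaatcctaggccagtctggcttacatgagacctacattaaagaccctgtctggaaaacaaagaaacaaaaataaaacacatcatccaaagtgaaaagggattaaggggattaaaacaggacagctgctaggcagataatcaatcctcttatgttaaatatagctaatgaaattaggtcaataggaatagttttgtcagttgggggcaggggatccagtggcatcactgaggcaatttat

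These stretches hold 10 CGs in 79 bases for Kdm2b, 16 in 153 bases for Setd2, 11 in 203 bases for Kdm4a and 0 in 250 bases for Kdm4c. Kdm4c has a further start inside its gene model, at 74251879, whose full window of 300 bases holds 28 CGs. The full windows of Kdm2b hold 28 and 18 CGs at its upstream pair of starts and 47 and 49 at an internal pair. Over 21263 windows of protein-coding genes the median was 13 CGs, and 95.4% held at least 1. No window of these 4 genes overlapped a differentially methylated region, those of Kdm2b included. For Setd2, Kdm4a and Kdm4c this follows from their 0 regions of any context. A CG loss inside a start window was listed for only 235 of the 17492 protein-coding genes with such a window (1.34%). The absence at Kdm2b therefore does not set its starts apart from those of most genes.

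The regions were concentrated in few of the enzymes. Nsd1 held 8 regions, Kdm2b 7, Nsd3 2 and Kdm4b 1, while Nsd2, Setd2, Ash1l, Kdm2a, Kdm4a and Kdm4c held 0. Thus 4 of 10 genes had at least 1 region, where 47.5% of all protein-coding genes had one and 75.2% of the 4313 protein-coding genes in the length range of the enzymes, 43.1 to 163 kb. The methyltransferases held 10 regions in 2 of 5 genes (1.76 per 100 kb) and the demethylases 8 regions in 2 of 5 genes (1.49 per 100 kb). Over all 10 genes this was 1.63 regions per 100 kb, below the 3.52 per 100 kb over all protein-coding genes widened the same way. By density Nsd1 (6.75 per 100 kb) ranked 3948th and Kdm2b (5.44 per 100 kb) 4938th of the 21792 genes. By number of regions they ranked 1170th and 1387th, and both lay above the upper quartile of 5 regions for genes in the length range. The median for those genes was 2 regions and the lower quartile 1, so counts differ among genes of that length in general.

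**Figure D1:**
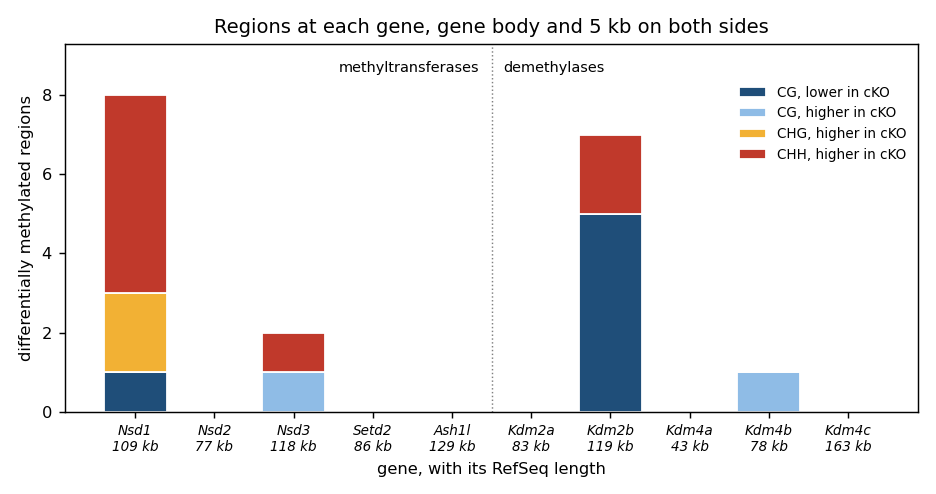
Number of differentially methylated regions at each of the 10 genes, stacked by cytosine context and direction, with methyltransferases left and demethylases right of the dotted line and the RefSeq length under each name. Nsd1 (8 regions) and Kdm2b (7 regions) hold 15 of the 18 regions, and 6 genes hold 0.

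By context, losses and gains were spread unevenly over the 18 regions. A CG region lower in cKO was found at Nsd1 and Kdm2b, which is 2 of 10 genes against 26.5% of all protein-coding genes and 40.7% of those in the length range. A CG region higher in cKO was found at Nsd3 and Kdm4b, 2 of 10 against 8.2% and 17.4%. Neither region was left when at least 10 cytosines, an area statistic at or above the median of its kind, or a difference of at least 30 points was required. Most CG gains of the whole series miss that last limit too, since the upper quartile over all 2626 was 28.0 points. All 8 CHH regions were higher in cKO, at Nsd1, Nsd3 and Kdm2b, 3 of 10 genes against 16.3% and 36.7%. A CHH region lower in cKO was found at 0 of 10 genes, against 22.4% of all protein-coding genes and 31% in the length range. CHG regions higher in cKO were found at Nsd1, 1 of 10 genes against 0.509% and 0.997%, and CHG regions lower in cKO at 0 of 10 genes against 0.789% and 1.07%. The count of genes with CHH gains therefore lies near the share of genes of that length, and 5 of the 8 CHH regions belong to Nsd1.

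Nsd1, the gene targeted in these mice, gained CHH and CHG methylation in a short stretch of its body and lost CG methylation near an end of its gene model. The groups differ by design in the Nsd1 allele, so a methylation change at this gene cannot be told apart from differences in the allele itself. The stretch runs from 55245173 to 55248799 on chromosome 13 (mm10), 35.4 to 39.0 kb from the lower-coordinate end of the gene model (55209782 to 55318325), and makes up 3.34% of it. The CHH regions cover 48.6% of the stretch, with 239 to 695 bp between neighbours. Weighted by their 557 cytosines, the CHH level was 0.508% in control and 6.82% in cKO.

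The outer CHH regions of the stretch had the higher levels in cKO. The first (55245173 to 55245902, 226 cytosines) was at 0.408% in control and 7.84% in cKO, a ratio of 19.2. The last (55248391 to 55248799, 129 cytosines) was at 0.581% and 7.90%, a ratio of 13.6. The 3 regions between them lay lower in cKO, at similar control levels. The region at 55246598 to 55246780 was at 0.591% in control and 5.14% in cKO, a ratio of 8.70. That at 55247020 to 55247290 was at 0.405% and 4.77%, a ratio of 11.8. That at 55247910 to 55248078 was at 0.834% and 5.24%, a ratio of 6.28. What set these regions apart in the table was the low control level more than the level reached in cKO. In 15.4% of the 8596 CHH gains listed, the control level was at or under 0.834%, the highest among these 5, and in 15.3% the ratio was at least 6.28, the lowest among them. The median over those 8596 gains was 1.69% in control and 6.90% in cKO. The conversion rate is unknown, so unconverted cytosines may make up an unknown part of control levels this low. The ratios divide by these levels and are uncertain for that reason. In the authors' deposited table, the area statistic, a score that grows with the number of cytosines, put the last region 18th of the 8596 and the first 2nd. The regions between them ranked 1875th, 268th and 2895th in their order along the chromosome in the authors' deposited table.

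The CHG regions of Nsd1 lay inside the outer pair of CHH regions. That at 55245610 to 55245788 (28 cytosines) was at 0.475% in control and 9.43% in cKO, and that at 55248599 to 55248718 (16 cytosines) at 0.380% and 10.7%. Among the 151 CHG regions higher in cKO, these differences ranked 12th and 6th. Of these 151 regions, 12 overlapped a CHH region higher in cKO, which is 7.95%, and the pair in Nsd1 is among them. Only 4 of 21792 protein-coding genes held 2 CHG regions higher in cKO, a count made after the values were seen, and they were Nsd1, Det1, Nsun4 and Shc3.

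**Figure D2:**
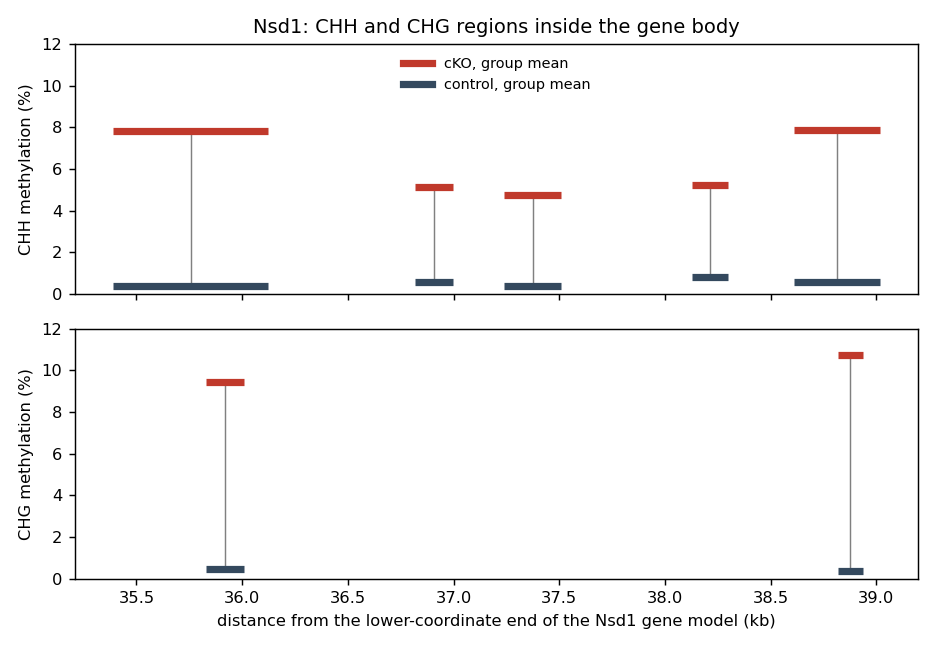
CHH (top) and CHG (bottom) methylation in percent over the stretch inside Nsd1, by distance in kb from the lower-coordinate end of the gene model, where each bar spans a called region at the group mean of control (dark) or cKO (red). Control levels lie under 1% in all 7 regions, and cKO levels lie between 4.77% and 7.90% in CHH and at 9.43% and 10.7% in CHG.

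Det1, which encodes a component of a ubiquitin ligase complex, held the stretch most like that of Nsd1. It was the other gene in which a window of 4 kb held 5 CHH regions higher in cKO, and that window too held 2 CHG regions higher in cKO and 0 CG regions. The count of 5 was taken from Nsd1 itself, so this search describes likeness to Nsd1 and supports nothing about how rare such a stretch is. The window starts at 78831082 on chromosome 7 and its CHH regions hold 741 cytosines. Levels in cKO were alike, at 4.89% to 7.97% in Det1 and 4.77% to 7.90% in Nsd1. Control levels did not overlap, at 1.47% to 2.43% in Det1 and 0.405% to 0.834% in Nsd1.

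The CG region of Nsd1 lay 225 bp inside the lower-coordinate end of the gene model (55210007 to 55210165), 35.0 kb from the CHH stretch. Over 31 CG cytosines it was at 50.4% in control and 29.8% in cKO, a difference of -20.6 points. It was dense, with 19.5 CG cytosines of both strands per 100 bp against a median of 7.14 over the 44497 CG regions lower in cKO. Its loss was among the smaller ones listed, since 95.3% of those regions had a larger absolute difference, and its control level was low, since only 6.19% had a lower one. Exons of Nsd1 and the place of the floxed sequence were not analysed here. These levels therefore do not show how far Nsd1 was deleted.

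Among the other methyltransferases, Nsd3 was the one with regions, both of them gains in the gene body on chromosome 8. NSD3 is a relative of NSD1 that also occurs as a short form without the catalytic domain. Its CG region (25709577 to 25709664) was at 26.6% in control and 43.9% in cKO over 5 CG cytosines. That gain of 17.4 points is small for the table, where 88.3% of the 2626 CG regions higher in cKO had a larger one. Its CHH region (25672816 to 25672876, 31 cytosines) was at 1.90% in control and 6.66% in cKO, close to the medians of 1.69% and 6.90% over all CHH gains.

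Nsd2, whose human counterpart is deleted in Wolf-Hirschhorn syndrome, Setd2 and Ash1l, a trithorax-group enzyme, had 0 regions in 87.3, 96.1 and 139 kb respectively. The nearest listed region was a CHH loss at 96.1 kb from Nsd2, a CG loss at 13.2 kb from Setd2 and a CHH loss at 34.1 kb from Ash1l. The CG loss near Setd2 was at 59.8% in control and 37.9% in cKO over 42 CG cytosines. Genes without a listed region may still differ by less than the authors' caller required, since the table holds called regions only.

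Among the demethylases, Kdm2b lost CG methylation on both sides of its upstream start sites. KDM2B has a CXXC zinc finger that binds unmethylated CG-rich DNA and brings a variant Polycomb repressive complex to CpG islands. The gene lies on the minus strand of chromosome 5 (122870664 to 122989270). All 5 of its CG regions were lower in cKO, and weighted by their 72 CG cytosines the level was 72.5% in control and 40.6% in cKO.

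Upstream of the first start site in the RefSeq window table (122989099), at 1.09 kb, a region of 673 bp (122990189 to 122990861, 29 CG cytosines) was at 70.2% in control and 36.5% in cKO. Farther upstream, at 2.09 kb, the region at 122991190 to 122991477 (9 CG cytosines) was at 69.3% and 26.9%. Its difference of -42.4 points was the largest among the 18 regions, and 5.45% of all CG regions lower in cKO had a larger one. Downstream of the same start, at 1.93 kb, the region at 122986996 to 122987168 (6 CG cytosines) was at 84.0% in control and 50.7% in cKO. At 2.78 kb, the region at 122986192 to 122986323 (9 CG cytosines) was at 63.2% and 30.7%. Neither of these downstream regions had at least 10 cytosines, and neither had an area statistic at or above the median of its kind. The farther upstream region, with 9 CG cytosines, missed the first of these requirements but not the second. The downstream side of the arrangement therefore rests on regions with few CG cytosines and low area statistics. The 3.02 kb between the inner regions, which hold the CG-rich bases shown for Kdm2b, carried 0 listed regions. Both upstream regions lie outside the Kdm2b gene model, at 0.919 and 1.92 kb from it, inside the lncRNA gene A930024E05Rik (122989354 to 122998345), so that they belong to that gene as much as to Kdm2b.

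**Figure D3:**
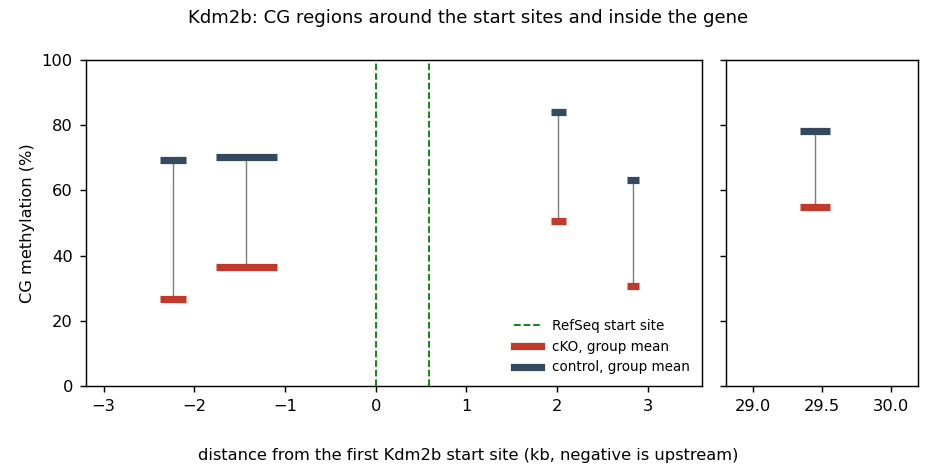
CG methylation in percent at the 5 CG regions of Kdm2b by distance in kb from its first start site (negative is upstream), with bars that span each region at the group mean of control (dark) or cKO (red) and dashed lines at the upstream pair of start sites. All 5 regions are lower in cKO, and 4 of them flank the start sites with 0 regions between them.

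CG losses on both sides of a start were uncommon. Of 17492 protein-coding genes with a start in the window table, 149 (0.852%) had a CG region lower in cKO within 3 kb on both sides of a start and none in the window itself. On at least 1 side, 10.7% had one. This comparison was made after the regions of Kdm2b had been seen, so it describes the arrangement and supports nothing about it.

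Deeper in Kdm2b, 29.3 kb downstream of the first start, the region at 122959542 to 122959762 (19 CG cytosines) was at 78.2% in control and 55.0% in cKO. This was a smaller loss than at the start, with a difference of -23.2 points. Kdm2b also held 2 CHH gains, so CG and CHH moved in opposite directions within the gene. The CHH region at 122940445 to 122940563 (37 cytosines) was at 2.64% in control and 8.37% in cKO. That at 122945318 to 122945388 (30 cytosines), which also lies in the lncRNA gene Gm33118, was at 0.841% and 5.42%. The CHH gains lie 43.7 and 48.5 kb downstream of the first start, well away from the CG losses at the start.

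Kdm4b, which acts on H3K9 as well as H3K36, had a single region, a CG gain in the gene body on chromosome 17 (56373107 to 56373174). Over 7 CG cytosines it was at 42.8% in control and 69.0% in cKO, a difference of 26.2 points against a median of 24.2 over the CG regions higher in cKO. Its relatives Kdm4a and Kdm4c had 0 regions, although Kdm4c is the longest of the 10 genes at 163 kb. Kdm2a, which like Kdm2b has a CXXC domain and removes the lower H3K36 states, had 0 regions too. The nearest listed region was a CG loss at 11.0 kb from Kdm4a, a CHH gain at 18.5 kb from Kdm4c and a CHH gain at 74.8 kb from Kdm2a.

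**Figure D4:**
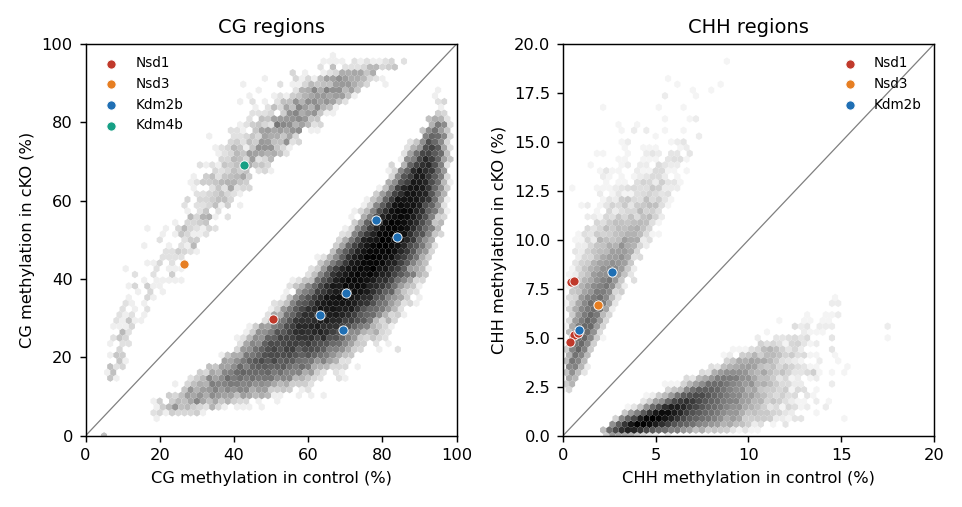
Methylation in cKO (y axis, percent) against control (x axis, percent) for CG regions (left) and CHH regions (right), with all listed regions as grey density on a log scale, regions of the named genes as coloured points and the diagonal at equal levels. The CHH regions of Nsd1 lie at the left edge, at control levels of 0.405% to 0.834%, and 15 CHH regions above 20% in a group are not drawn.

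The medians over these genes were set beside those of the whole table. The 6 CG regions lower in cKO had a median difference of -32.9 points, against -31.2 over all 44497, with 5 of the 6 from Kdm2b. The 8 CHH regions had medians of 0.712% in control and 6.04% in cKO, against 1.69% and 6.90% over all CHH gains, with 5 of the 8 from Nsd1. Directions were compared with those of all regions at a protein-coding gene. In CG, 6 regions were lower and 2 higher, where 87.2% of the regions at such genes were lower. In CHH, 8 of 8 were higher, where 63.9% of those at such genes were lower, and in CHG 2 of 2 were higher, where 60.1% were lower. Regions of the same gene are not independent, and 7 of these 10 non-CG regions lie in the stretch inside Nsd1.

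Regions at the 5 kb limit do not decide these counts. The farthest region outside a gene model but inside the limit was the upstream one of Kdm2b at 1.92 kb. The nearest beyond it was a CHH gain at 10.1 kb from Nsd3, at 0.636% in control and 7.25% in cKO.

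Proteins listed as readers of H3K36 methylation, and further enzymes listed as acting on H3K36, were set beside these genes without regard to gene length. The lists were written with the gains in Brpf3 already known. The reader list also holds the transcription elongation factors Iws1 and Supt6, for which reading of the mark was not checked. Action on H3K36 was not checked for the other enzymes either. Riox2, which may not belong among them, holds 3 of their 5 CHH gains and their only CG region. Of 22 reader genes, 7 had at least 1 region (31.8%), and of 9 other enzyme genes, 3 did (33.3%), against 47.5% of all protein-coding genes. Readers with a CG gain numbered 4 of 22 (18.2%, against 8.2% of all protein-coding genes). Brpf3, a subunit of histone acetyltransferase complexes with a PWWP domain, had 5 of them, and the one with the largest area statistic in the authors' deposited table went from 53.4% in control to 84.7% in cKO. The single CG gain in Pwwp2a went from 44.8% to 70.6%, in Zmynd11, a reader of trimethylated H3K36 on a histone variant, from 50.8% to 75.4%, and in Iws1, a transcription elongation factor, from 66.3% to 84.3%. Readers with a CG loss numbered 2 of 22 (9.09%, against 26.5% of all protein-coding genes), namely Dnmt3b, with 4 losses, and Pwwp2b. The single loss of Pwwp2b went from 86.2% to 56.3%. The loss of Dnmt3b with the largest area statistic in the authors' deposited table went from 67.3% to 40.8%. Dnmt3a had 0 regions in a gene of 113 kb.

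In the CHH context the readers had a gain in Brpf3 (1.16% to 7.07%) and a loss in Phf19, a Polycomb-associated reader (4.75% to 1.34%). That is 1 of 22 reader genes (4.55%) in each direction, against 16.3% of all protein-coding genes for gains and 22.4% for losses. Among the other enzymes, CHH gains were found in Kdm4d (2.35% to 7.32%), Riox2 (3.97% to 10.1%) and Smyd2 (1.95% to 7.97%), and Smyd2 also had a CHH loss in its flank (6.46% to 1.35%). Genes with a CHH gain thus numbered 3 of 9 (33.3%, against 16.3%) and with a CHH loss 1 of 9 (11.1%, against 22.4%). Riox2 had a CG gain in its flank, from 61.4% to 87.7%, the only CG region of these 9 genes. For CG gains that is 11.1% of them, against 8.2% of all protein-coding genes, and for CG losses 0 of 9, against 26.5%. CHG regions were found at 0 of these 31 genes, against 0.509% of all protein-coding genes for gains and 0.789% for losses.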

How the data were processed

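The 2 cKO and 2 control libraries were read by whole-genome bisulfite sequencing. Per the submitters' processing notes, CASAVA, Bowtie2 and the build mm10 were used, without versions or roles. Not given in the sources used here are the region caller, its thresholds, its use of replicates and the conversion rate. The authors deposited a table of called regions with the mean level of each group as a fraction, multiplied by 100 here, an area statistic, which is a score, and the number of cytosines. Values per library and coverage were not part of it. Error and depth are therefore unknown, and biases in conversion or coverage between groups would enter the levels unseen. The labels do not say whether the replicates are separate animals.

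Gene positions came from the RefSeq table for GRCm38.p6. Genes listed in the first 3 Mb of a chromosome other than Y and MT were left out. Regions sharing at least 1 bp with a gene widened by 5 kb were assigned to it, and the assignment was checked on simulated data with planted regions. All 10 genes are named. Within a gene, every region is given when there are 8 or fewer. Of readers and other enzymes, the text names up to 4 per context and direction with the largest area statistic. The genes and lists were chosen with earlier results of these data known. Python 3.11.15, pandas 2.3.3, numpy 2.4.6 and matplotlib 3.10.9 were used. RefSeq windows around start sites were matched by symbol for 4 of the 10 genes. Exons and strand of the other genes were not analysed here.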

Additional observations from a re-analysis of the deposited data

How the results depend on the processing

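The 7 counts over the 10 genes were recomputed under 6 alternatives, and 33 of the 42 values stayed within 1.5 times. Part of these 33 could not move, so their number does not measure stability. The count of 0 CHH losses stays 0 under any filter that only removes regions. No region lay across the 5 kb limit or between 5 and 10 kb from a gene, so the wider limit and the rule on a region's length had nothing to change. No widening, widening by 10 kb and asking for at least 0.5 of a region's length inside moved none past that limit, although without widening the CG losses numbered 4 in place of 6. With the area statistic at or above the median of its kind, 2 genes had a region, CG gains fell to 0 and CHH gains to 5. With at least 10 cytosines, CG losses numbered 3 and CG gains 0. With differences of at least 30 points in CG and 5 points elsewhere, 2 genes had a region, CG gains numbered 0, CHH gains 3 and CHH gains of Nsd1 2. The limit of 30 points lies above the upper quartile of 28.0 points over all CG gains. The causes were not tested, beyond fewer regions passing. A gene model limited to curated transcripts was not run, since the table used gives no span per transcript. No paired analysis was possible because the table holds group means without values per library, and for the same reason no replicate could be left out.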
